A study of Homo sapiens with 12 samples.

Results

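IER2, IER3, IER5, IER5L, CSRNP1 and CSRNP2 are the immediate early response (IER) and cysteine-serine-rich nuclear protein (CSRNP) genes of the human immediate early program. They were taken by symbol from a table of raw counts per gene, which held all 6 of them among its 20771 genes, and all 6 passed the filter on low counts that left 16515 genes for testing. The RNA came from EW8-RRM1-KO cells and from their TC71-RRM1-KO counterparts, 2 Ewing sarcoma cell lines in which CRISPR/Cas9 had disrupted endogenous RRM1, the large subunit of ribonucleotide reductase, and in which a doxycycline-inducible, codon-optimised RRM1 transgene replaced it. Knockout cells of each line had been single-cell cloned. In both lines the groups were cells labelled 0 h, with doxycycline, and 48 h, without doxycycline for that time, with 3 libraries in each of the 4 groups. Cells of both times carried the knockout, Cas9 and the transgene, and no line without them entered the comparison.

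Immediate early genes are transcribed within minutes of a signal without the need for new protein. Growth factors, serum, DNA damage and other stresses induce them, and many of their mRNAs are short-lived because AU-rich stretches of the 3′ untranslated region recruit decay factors. IER2, IER5 and IER5L share an N-terminal domain, act in the nucleus and bind the phosphatase PP2A, and IER5 activates the heat shock factor HSF1. IER3, also called IEX-1, carries the family name without that domain and modulates ERK signalling and cell death. CSRNP1, CSRNP2 and CSRNP3 are nuclear proteins with transcriptional activity, and CSRNP1, also called AXUD1, was first found as a gene induced by AXIN1.

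Total counts per library ranged from 18468485 to 35698991. Between libraries of a group, the chi-square per gene was 5.12, 7.83 and 9.48 for the pairs of TC71 at 48 h, the upper 2 with replicate 3, and 2.05 to 4.87 in the other groups. Without that replicate the TC71 values of IER2, IER3 and CSRNP1 below were 1.34, 2.04 and 1.28 on the log2 scale. All 9 markers listed for Ewing sarcoma were detected, at a summed level of 1099 in the lowest and 1190.1 in the highest library, in counts scaled to library size with TMM normalisation (CPM). Of the markers listed for other cell types, 4 had values here, and of these PTPRC and EPCAM together reached at most 1.64 CPM. The other two, COL1A1 and ACTA2, were higher in the libraries labelled 48 h, with log2 fold changes of 1.79 and 2.07 in EW8 and 0.66 and 1.05 in TC71, and their part in the results below was not tested. The targeted gene, RRM1, stood at 9.52 ± 0.148 CPM in EW8 at 0 h and 70.2 ± 5.54 at 48 h (SD, n = 3), and at 16.2 ± 0.98 and 25.4 ± 1.19 in TC71. Whether reads of the codon-optimised transgene reach this row was not tested, so it does not check that the transgene was off, and the times are those of the labels throughout. In RNA from whole cultures, a change in the share of cells in a state and a change in RNA per cell cannot be told apart.

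The upstream sequences of 3 genes are shown first. Those of the paralogues IER5 and IER5L shared features that were not found in the windows of IER2, CSRNP1 and CSRNP2. IER3 had no window and was not searched. IER5 and IER5L are each a single exon, which held for 2.23% of the 12850 protein-coding genes tested. Each line gives the 250 bases before an annotated start, 5′ to 3′ on the gene's strand, from RefSeq on GRCh38.p14. CSRNP1 has 2 such starts, and the sequence of the inner one, which lies within the gene, is shown. Capitals mark the heat shock element core GAANNTTC, the CCAAT box in either orientation and the core of the cyclic AMP response element, TGACG, in either orientation.
IER5, chr1:181088450-181088699, plus strand: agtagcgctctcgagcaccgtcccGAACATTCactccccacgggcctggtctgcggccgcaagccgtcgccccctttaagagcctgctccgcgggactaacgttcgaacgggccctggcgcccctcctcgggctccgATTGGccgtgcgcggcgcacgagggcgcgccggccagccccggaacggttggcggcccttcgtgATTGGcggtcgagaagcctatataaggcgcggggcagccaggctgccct
IER5L, chr9:129178262-129178511, minus strand: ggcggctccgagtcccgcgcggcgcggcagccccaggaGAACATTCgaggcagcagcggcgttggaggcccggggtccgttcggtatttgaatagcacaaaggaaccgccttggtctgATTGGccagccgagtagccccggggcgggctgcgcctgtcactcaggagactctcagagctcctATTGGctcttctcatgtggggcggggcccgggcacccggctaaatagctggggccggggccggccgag
CSRNP1, chr3:39153592-39153841, minus strand: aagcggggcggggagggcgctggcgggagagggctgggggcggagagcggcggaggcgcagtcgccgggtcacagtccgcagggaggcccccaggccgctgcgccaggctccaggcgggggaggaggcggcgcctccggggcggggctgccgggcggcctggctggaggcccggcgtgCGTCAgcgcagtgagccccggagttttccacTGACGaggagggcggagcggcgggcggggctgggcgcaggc

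IER5 and IER5L held the same heat shock core, GAACATTC, upstream of 2 inverted CCAAT boxes, and the boxes lay 64 bases apart in both genes. Of 35116 RefSeq promoter windows of 300 bases, 6.77% held the core on either strand, 34.6% held a CCAAT box, and 0.812% held the core with at least 2 boxes. These letters were searched after the sequences had been read, so their presence in both genes is a description. The window of CSRNP2, which like IER5 and IER5L passed the fold threshold in neither line, held neither the core nor a CCAAT box. CSRNP1 held 2 copies of TGACG in the window of its inner start, and 24.6% of all windows held at least 1. IER2 held 1, in capitals in cacccccgccccCGTCAcgccaccatcgag (chr19:13150259-13150288, plus strand), inside a region that exons of the neighbouring STX10 also cover. The core of IER5 lies in an exon of ENSG00000289589, and the CSRNP1 sequence lies whole in an exon of ENSG00000283849, both on the other strand.

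The 6 motifs searched first were absent from all 6 windows of the members, which covered 5 of the genes, all but IER3, and CSRNP1 with 2 starts. They were the full cyclic AMP response element TGACGTCA, which contains TGACG, the AP-1 site TGANTCA, the EGR site GCGNGGGCG, the letters TATAAA, the CArG box and the kappaB site. They occurred in 1.85%, 7.71%, 9.43%, 11.5%, 1.29% and 5.91% of all windows, in that order.

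The 3′ untranslated regions differed in AU-rich pentamers, the letters ATTTA. The IER3 region had 6 pentamers in 737 bases, or 8.14 per kb, against a median of 1.82 per kb over 12386 genes tested. IER5 had 10 in 3014 bases, or 3.32 per kb, and 3 copies of the nonamer TTATTTATT, which 9.97% of those genes held at least once. CSRNP1 had 5 pentamers, or 4.17 per kb, and 1 nonamer. CSRNP2 had 7 pentamers, or 2.75 per kb, and IER5L had 3, or 2.33 per kb. IER2 had none in 1053 bases, as did 24.7% of the genes. The sites below show the densest stretch in 3 members, with the pentamers in capitals. Of these, IER3 and CSRNP1 rose by more than 2-fold and IER5 by less. IER2, without a pentamer, also rose by more than 2-fold, and CSRNP2, with 7, by less. The part of these sites in the responses was not tested.
IER3, chr6:30743655-30743684, minus strand: ttgctcctaattaatATTTAtatgtATTTA
IER5, chr1:181092442-181092471, plus strand: ggtgtcttcctttATTTATTTATTTATTTA
CSRNP1, chr3:39142895-39142924, minus strand: ttttcaaacaattctctggATTTATTTAtt

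IER2, IER3 and CSRNP1 rose more than 2-fold in both lines, and CSRNP2 and IER5 rose by less than 2-fold in both. Adjusted p below 0.05 with a fold above 2 was met by 3 of the 6 genes in EW8, where 13.9% of all genes tested were called higher by this rule, and by the same 3 in TC71, where 3.26% were. Without the fold threshold, 6 of 6 were higher in EW8 and 5 of 6 in TC71, beside 37% and 22.9% of all genes, and in EW8 IER5L, at an adjusted p of 0.0478, lost its call under 14 of 22 alternatives. The 6 genes had a median of 1.37 (EW8) and 0.9 (TC71) on the log2 fold change scale, against 0.031 and -0.0013 over all genes. All tests here are edgeR's quasi-likelihood tests with Benjamini-Hochberg adjustment over the 16515 genes, and levels are CPM after TMM normalisation.

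**Figure D1:**
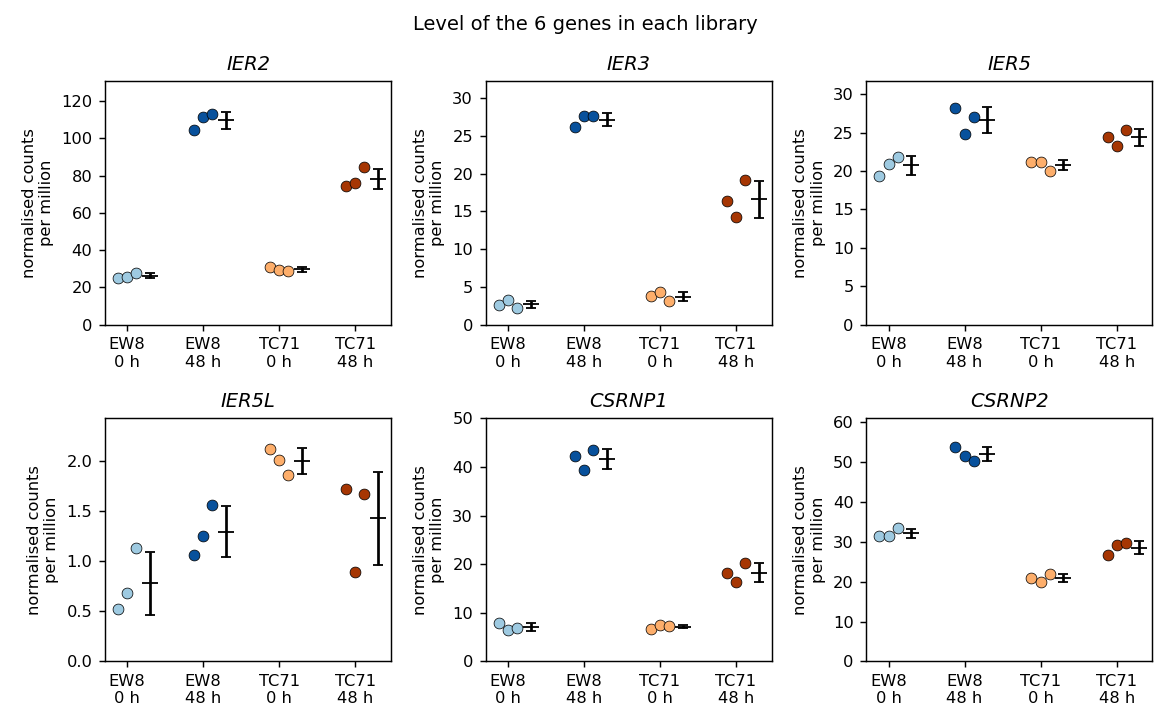
Level of each gene in CPM (vertical axis, linear from 0, own scale for each gene) in the 3 libraries of each group, with the group mean and SD beside the points. For IER2, IER3, IER5, CSRNP1 and CSRNP2 each 48 h library lies above each 0 h library of its line, and for IER5L the times overlap in EW8 and do not in TC71.

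IER2, a nuclear protein of growth-stimulated cells, was at 25.3, 25.8 and 27.8 CPM in the EW8 libraries labelled 0 h and at 104, 111 and 113 in those labelled 48 h. In TC71 it was at 31, 29.3 and 28.8 at 0 h and at 74.6, 76.1 and 84.5 at 48 h. Every library labelled 48 h was above every one labelled 0 h, with raw counts of at least 451 behind each value. The log2 fold change was 2.05 ± 0.058 (SE) in EW8, or 4.15-fold (adjusted p = 1.2e-25), and 1.4 ± 0.057 in TC71, or 2.64-fold (adjusted p = 4.64e-20). At least as large a rise was found for 4.41% of all genes in EW8 and for 1.8% in TC71.

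IER3, the regulator of ERK signalling and cell death, had the largest log2 fold change of the 6 in both lines. It was at 2.58, 3.21 and 2.26 CPM in EW8 at 0 h, from 59, 56 and 74 reads, and at 26.1, 27.7 and 27.6 at 48 h. In TC71 the values were 3.76, 4.32 and 3.1 at 0 h and 16.3, 14.2 and 19.2 at 48 h. The times did not overlap in either line. The log2 fold change was 3.38 ± 0.12 in EW8, or 10.4-fold (adjusted p = 3.87e-21), and 2.17 ± 0.12 in TC71, or 4.49-fold (adjusted p = 1.71e-15). As large a rise or larger was found for 1.28% and 0.575% of all genes tested in EW8 and TC71.

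CSRNP1, the nuclear protein found through its induction by AXIN1, was at 7.88, 6.42 and 6.86 CPM in EW8 at 0 h and at 42.2, 39.4 and 43.4 at 48 h. In TC71 it was at 6.74, 7.4 and 7.24 at 0 h and at 18.2, 16.3 and 20.2 at 48 h. The lines overlapped at 0 h and were apart at 48 h, where each EW8 library was above each TC71 library. The log2 fold change was 2.56 ± 0.085 in EW8, or 5.89-fold (adjusted p = 1.43e-23), and 1.36 ± 0.09 in TC71, or 2.57-fold (adjusted p = 2.87e-14).

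CSRNP2, its relative, started higher and changed less. It was at 31.4, 31.6 and 33.4 CPM in EW8 at 0 h and at 53.9, 51.6 and 50.4 at 48 h. In TC71 it was at 21, 20 and 22 at 0 h and at 26.8, 29.2 and 29.8 at 48 h. No library labelled 48 h fell within the range of its line at 0 h. On the log2 scale EW8 changed by 0.69 ± 0.058 (adjusted p = 1.31e-12) and TC71 by 0.45 ± 0.063 (adjusted p = 5.35e-07), both past the p threshold and under 2-fold.

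CSRNP3, the third gene of the family and no member of the set, was measured beside them. It rose from 24.4, 26.2 and 26.4 CPM to 122, 144 and 135 in EW8 and from 6.78, 7.11 and 6.87 to 13.9, 14.7 and 14.7 in TC71. Its log2 fold changes were 2.38 ± 0.059 (adjusted p = 2.78e-27) and 1.06 ± 0.085 (adjusted p = 2.79e-12). CSRNP3 and CSRNP1 thus passed both thresholds in both lines and CSRNP2 passed them in neither.

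IER5, the PP2A-binding activator of HSF1, was at 19.4, 21 and 21.8 CPM in EW8 at 0 h and at 28.2, 24.8 and 27 at 48 h. In TC71 it was at 21.2, 21.2 and 20 at 0 h and at 24.4, 23.3 and 25.4 at 48 h. The times did not overlap, and the shifts were small. On the log2 scale EW8 changed by 0.36 ± 0.069 (adjusted p = 2.4e-05) and TC71 by 0.23 ± 0.067 (adjusted p = 0.0056), and 32.8% and 24.5% of all genes tested lay at or above these values.

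IER5L, the paralogue of IER5, was the least expressed of the 6. Its raw counts were 12, 12 and 37 in EW8 at 0 h and 20, 25 and 32 at 48 h, which gave 0.526, 0.687 and 1.13 against 1.06, 1.25 and 1.57 CPM. TC71 libraries held 57, 41 and 45 reads of it at the first time and 45, 24 and 54 at the second, or 2.12, 2.01 and 1.86 against 1.72, 0.895 and 1.67 CPM. The EW8 times overlapped, and those of TC71 did not. Its fitted change was 0.65 ± 0.29 in EW8 (adjusted p = 0.0478), and the call was lost under 14 of 22 alternatives, among them without replicate 1 of EW8 at 0 h (adjusted p = 0.266), while without replicate 3 of that group it rose to 1.08 (adjusted p = 0.00858). In TC71 it was -0.48 ± 0.22 (adjusted p = 0.0846), which did not pass, and without replicate 2 of TC71 at 48 h it was -0.25 (adjusted p = 0.395).

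**Figure D2:**
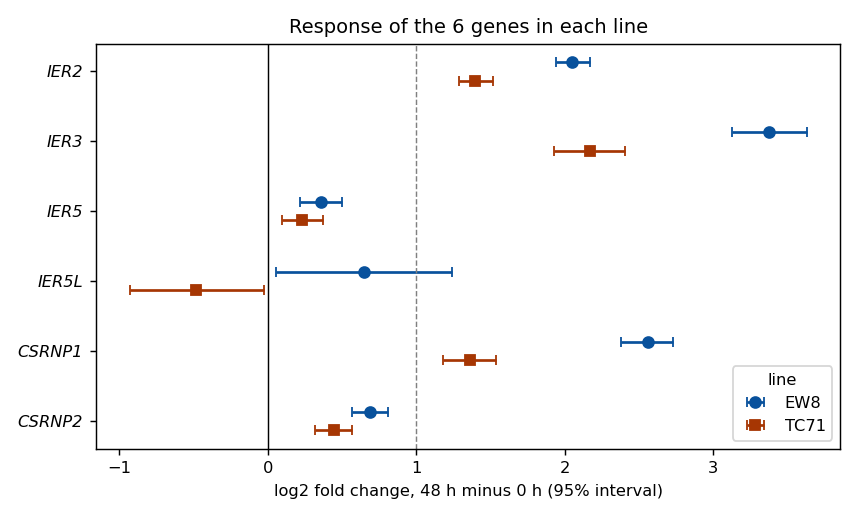
Log2 fold change of each gene, 48 h minus 0 h (horizontal axis), in EW8 (circles) and TC71 (squares), with 95% confidence intervals from the quasi-likelihood fit and a dashed line at a fold of 2. IER2, IER3 and CSRNP1 lie to the right of that line in both lines, and the intervals of IER5L are the widest, from 0.057 to 1.24 in EW8 and from -0.93 to -0.023 in TC71.

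Knockout cells of each line had been single-cell cloned, so here and below an effect of line and one of clone cannot be told apart. Whether the lines differed was tested as the EW8 response minus the TC71 response. The difference was past the p threshold for 5 of the 6 genes, beside 25.7% of all genes in the same direction, and past both thresholds for 3, beside 7.28%. These 3 were IER3 with a log2 difference of 1.21 ± 0.19 (adjusted p = 3.16e-06), CSRNP1 with 1.2 ± 0.13 (adjusted p = 2.06e-09) and IER5L with 1.12 ± 0.37 (adjusted p = 0.0112). For IER5L the call was lost without replicate 1 of EW8 at 0 h (adjusted p = 0.0538) and without replicate 3 of EW8 at 48 h (adjusted p = 0.0533). It was also lost with a fold of 1.5 inside the test (adjusted p = 0.207), and without replicate 2 of TC71 at 48 h it was 0.89, under a fold of 2. IER2 differed by 0.65 ± 0.081 (adjusted p = 3.97e-08) and CSRNP2 by 0.24 ± 0.086 (adjusted p = 0.018). The call for CSRNP2 was lost without replicate 1 or 2 of EW8 at 0 h, replicate 3 of TC71 at 0 h or replicate 1 of TC71 at 48 h, with an adjusted p of up to 0.0725. For IER5 the difference was 0.13, with a 95% interval from -0.067 to 0.32 (adjusted p = 0.282).

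With doxycycline, at 0 h, the lines differed in 4 of the 6 genes by the p threshold, beside 65.7% of all genes, and in 1 by both thresholds, beside 16.7%. That gene was IER5L, lower in EW8, at -1.27 ± 0.26 on the log2 scale for EW8 minus TC71 (adjusted p = 5.66e-05). CSRNP2 was higher in EW8 by 0.62 ± 0.063 (adjusted p = 1.55e-10), and IER3 and IER2 were lower there, with -0.51 ± 0.17 (adjusted p = 0.00841) and -0.17 ± 0.063 (adjusted p = 0.0196). The call for IER3 was lost without replicate 3 of EW8 at 0 h (adjusted p = 0.102). That for IER2 was lost without replicate 1 or 2 of EW8 or replicate 1 of TC71 at that time, with an adjusted p of up to 0.114. With a fold of 1.5 inside the test the 0 h calls of IER3, IER2 and CSRNP2 were lost, that of CSRNP2 at an adjusted p of 0.454, and the call of IER5L was not (adjusted p = 0.00843). At 48 h the same test lost the calls of IER2 and IER3 given next. For CSRNP1 the interval of the difference ran from -0.22 to 0.21 and for IER5 from -0.14 to 0.14.

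At 48 h the order had turned for IER2 and IER3, which were now higher in EW8 by 0.48 ± 0.052 (adjusted p = 2.79e-10) and 0.7 ± 0.09 (adjusted p = 2.59e-08). By the p threshold 4 of the 6 genes differed, beside 72.7% of all genes, and by both thresholds 1 did, beside 21.5%. That gene was CSRNP1, higher in EW8 by 1.19 ± 0.073 or 2.28-fold (adjusted p = 2e-16). CSRNP2 was higher by 0.86 ± 0.058 (adjusted p = 2.67e-15). IER5, at 0.13 with an interval from -0.0084 to 0.26, passed only without replicate 2 of EW8 at 48 h (adjusted p = 0.0311). IER5L did not pass, at -0.15 with an interval from -0.66 to 0.37.

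Levels were compared between genes as CPM per kb of the canonical transcript. In EW8 at 0 h IER2 stood highest, at 12.5 ± 0.634 (SD, n = 3), followed by CSRNP2 at 7.11 ± 0.249 and IER5 at 4.93 ± 0.287. CSRNP1 at 2.23 ± 0.238 and IER3 at 2.17 ± 0.391 differed by less than their spread, and IER5L was last at 0.288 ± 0.115. At 48 h the EW8 order became IER2 at 52 ± 2.22, IER3 at 21.9 ± 0.715, CSRNP1 at 13.2 ± 0.648, CSRNP2 at 11.5 ± 0.394, IER5 at 6.34 ± 0.412 and IER5L at 0.478 ± 0.0937. IER3 and CSRNP1 had thus passed both CSRNP2 and IER5.

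In TC71 IER2 was also highest at 0 h, at 14.1 ± 0.54 per kb, before IER5 at 4.95 ± 0.16 and CSRNP2 at 4.65 ± 0.227, which lay within their joint spread. At 48 h IER2 was at 37.1 ± 2.54 and IER3 at 13.4 ± 2.0, while CSRNP2 at 6.33 ± 0.358, IER5 at 5.8 ± 0.252 and CSRNP1 at 5.75 ± 0.616 were not separated by more than their spread. Of the summed level per kb of the 6 genes, IER3 took 7.44% at 0 h and 20.8% at 48 h in EW8, and 10.1% and 19.4% in TC71. IER5 took 16.9% and 6.02% in EW8 and 16.7% and 8.43% in TC71.

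**Figure D3:**
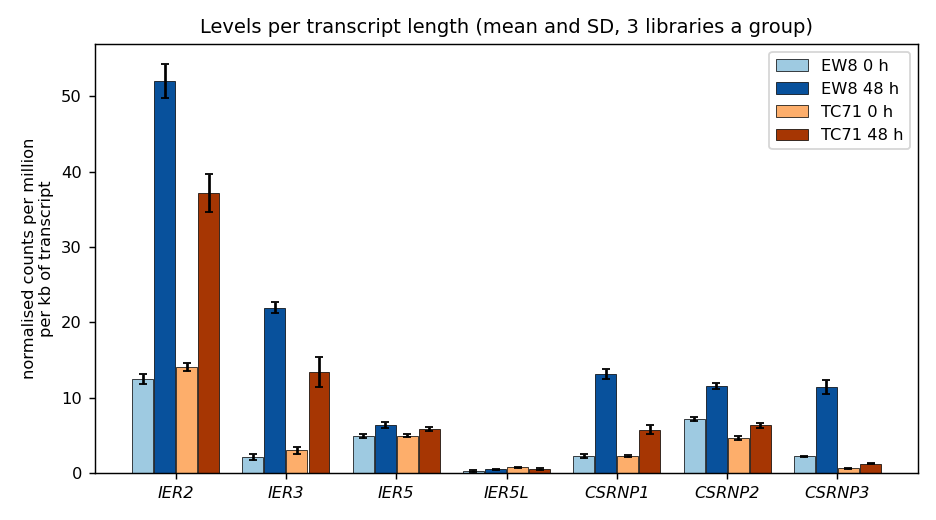
Mean level per kb of canonical transcript, in CPM per kb (vertical axis, linear from 0), of the 6 genes and CSRNP3 in the 4 groups, with the SD of 3 libraries as error bars. The bars of IER2 are the tallest in every group, up to 52 in EW8 at 48 h, and those of IER5L stay below 1.

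The other immediate early genes were a list of 65, of which 60 were tested, covering the FOS, JUN, EGR, ATF, KLF, NR4A and DUSP families. In EW8 47 were called higher and 0 lower by edgeR, with 53 and 3 by the adjusted p alone, and in TC71 30 were called higher and 0 lower, with 50 and 3. Of all genes tested, 13.9% were called higher and 3.35% lower in EW8 (37% and 31.6% by the adjusted p alone), and 3.26% and 0.854% in TC71 (22.9% and 19.2%). In both lines 29 of the list were called higher, beside 2.79% of all genes. On the same scale the list had a median of 2.13 (EW8) and 1.04 (TC71), against 1.37 and 0.9 for the 6 genes and 0.031 and -0.0013 for all genes. The list was written with earlier results of these data known.

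Among the genes called whose lower group averaged at least 20 counts, the AP-1 subunits JUN and FOS led, with log2 fold changes of 6.55 ± 0.089 and 6.29 ± 0.11 in EW8 and 4.44 ± 0.078 and 5.77 ± 0.12 in TC71. The zinc finger factor EGR1 changed by 5.49 ± 0.07 and 4.03 ± 0.064, and the stress factor ATF3 by 4.89 ± 0.1 and 3.37 ± 0.12. CCN2, a matricellular protein, completed the leading 5 of EW8 at 3.91 ± 0.13, and EGR3 those of TC71 at 3.92 ± 0.14. The largest adjusted p among these 10 values was 1.3e-13, for ATF3 in TC71. IER3, at 3.38 in EW8 and 2.17 in TC71, lay below those 5 of each line. NFKBIA, ZFP36L2 and SRF fell by less than 2-fold in both lines, by 0.54, 0.49 and 0.38 on the log2 scale in EW8 and by 0.2, 0.23 and 0.24 in TC71.

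**Figure D4:**
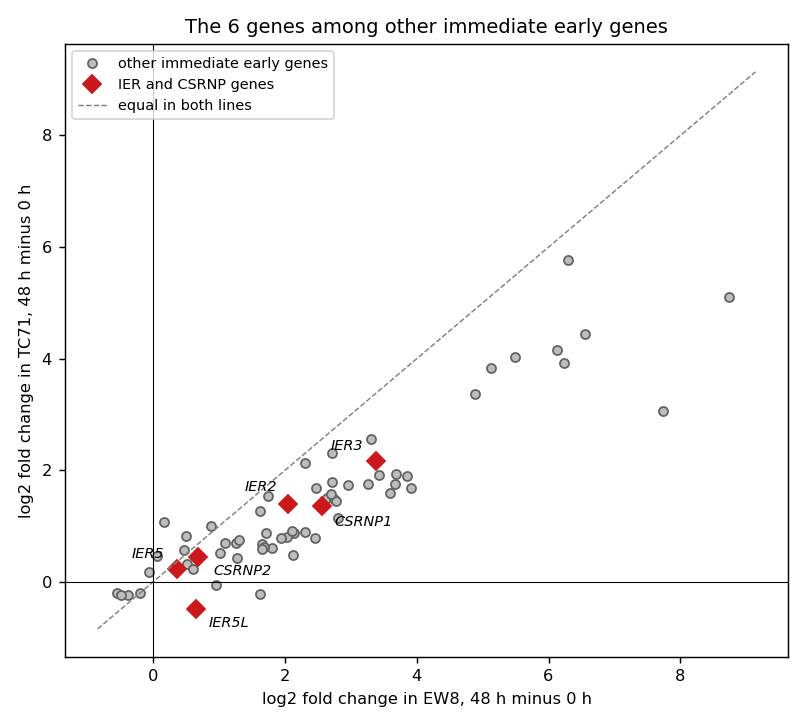
Log2 fold change, 48 h minus 0 h, in EW8 (horizontal axis) and TC71 (vertical axis) of the 6 genes (diamonds) and of 60 other immediate early genes (circles), with a dashed line where both lines would be equal. IER2 and CSRNP1 lie in the middle of the cloud, and IER5, IER5L and CSRNP2 at its lower left end. IER3 lies above the medians of the circles, 2.13 in EW8 and 1.04 in TC71, in both lines. The EW8 response minus the TC71 response had a median of 1.1 over the circles and 0.042 over all genes tested. The list of circles was written with earlier results of these data known.

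The partners of the IER proteins were followed as a list of 14 genes, HSF1 and the subunits of PP2A, of which 13 were tested. In EW8 1 was called higher and 0 lower, with 4 and 6 by the adjusted p alone, and in TC71 0 were called in either direction by edgeR, with 1 and 3. For edgeR the shares of all genes are those given for the list before. DESeq2 also called 1 higher in EW8 and 0 in TC71, beside 13.4% and 2.9% of all genes. The gene called was PPP2R5B, a regulatory subunit of PP2A, at 2.15 ± 0.082 in EW8 (adjusted p = 6.1e-22), with a difference between the lines of 1.6 ± 0.12 (adjusted p = 3.09e-13). The list had a median of 0.05 (EW8) and -0.054 (TC71) on the log2 fold change scale, beside 0.031 and -0.0013 for all genes.

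The genes most like each member were found by Pearson's r of log2 CPM over the 12 libraries, which share 2 lines and 2 times, so these values describe the 4 groups as much as the genes. For IER2 they were ERFE at 0.997, MCL1 at 0.996 and DUSP8 at 0.996, and for IER3 RELB at 0.994, ERFE at 0.994 and JUN at 0.993. CSRNP1 was most like CCN1 at 0.996, RHOH at 0.995 and ERRFI1 at 0.994. CSRNP2 was most like BUD13 at 0.996, SH3RF2 at 0.992 and DNAJA4 at 0.992, and IER5 like MSC at 0.975, a gene listed only as ENSG00000108272 at 0.97, and GPANK1 at 0.964. IER5L reached 0.904 with ZCWPW1 and with DGUOK, and 0.9 with B4GALT3. Among the members, r was 0.991 between IER2 and IER3 and 0.97 between IER2 and CSRNP1. IER5 reached 0.931 with IER2 and 0.924 with both IER3 and CSRNP1. IER5L had 0.0719 with CSRNP1 and, the lowest value of any pair, -0.369 with CSRNP2.

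Positions are from GENCODE 44 on hg38. IER2 lies at chr19:13150411-13154911 on the plus strand and starts 28 bp from STX10, a syntaxin gene on the other strand, which on the log2 scale changed by 0.59 ± 0.055 in EW8 and 0.21 ± 0.053 in TC71. IER3, at chr6:30743199-30744548 on the minus strand, lies 467 bp from FLOT1, which encodes a membrane raft protein and stood at 0.15 ± 0.046 and 0.063 ± 0.045. Both neighbours thus had smaller values than the member beside them.

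CSRNP1 lies at chr3:39141855-39154562 on the minus strand, 2952 bp from TTC21A, a tetratricopeptide repeat gene that was called in EW8 at 1.17 ± 0.2 (adjusted p = 4.96e-06) and stood at -0.084 ± 0.22 in TC71. CSRNP2, at chr12:51061205-51083664 on the minus strand, lies 781 bp from LETMD1, at 0.99 ± 0.046 in EW8 and 0.21 ± 0.049 in TC71. On its other side TFCP2, a transcription factor gene, stood at -0.26 ± 0.047 and -0.05 ± 0.047. LETMD1 thus had a larger value than CSRNP2 in EW8 and a smaller one in TC71.

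IER5, at chr1:181088700-181092900 on the plus strand, has MR1 as its nearest gene in the table on the upstream side, 26762 bp away. MR1, an antigen-presenting molecule, was called in EW8 at 2.11 ± 0.1 (adjusted p = 7.29e-19) and stood at 0.74 ± 0.078 in TC71, both above the values of IER5. IER5L, at chr9:129175552-129178261 on the minus strand, lies 26606 bp from PTPA, the PP2A phosphatase activator, which stood at -0.32 ± 0.045 and -0.12 ± 0.044.

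Exons of other genes on the opposite strand overlap IER2, IER3, IER5L and CSRNP1. The libraries were stranded, but the strand setting of the counting is not given in the sources used here, so reads of these partners could not be told apart from those of the members. Of these partners HCG20, over IER3, was the one in the table. It had 0, 0 and 2 counts in EW8 at 0 h and 11, 19 and 11 at 48 h, where IER3 had 491, 552 and 564.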

How the data were processed

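RNA of 12 libraries of 2 Ewing sarcoma lines was prepared by the authors with a stranded mRNA kit, checked with FastQC and mapped to hg38 with STAR. The deposited values are raw counts per gene, not normalised. No gene of the table summed to fewer than 21 counts, and the counting tool, annotation and low-count filter are not given in the sources used here. Samples were grouped by line and time from their labels. Whether the 3 libraries of a group came from separate cultures is not stated, so p-values measure the spread between these libraries only, which may be technical.

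The quasi-likelihood test of edgeR 4.0.16 (R 4.3.3) was run on these counts (filterByExpr with a minimum count of 10 and total of 15, TMM, robust quasi-likelihood fit of 4 group means, adjusted p below 0.05 and fold above 2). The procedure was also run on simulated counts with the same dispersion for every gene, which does not measure its error rates in these data. The genes named were the 6 members, CSRNP3, RRM1, the 3 genes most like each member (prior count of 2), annotated neighbours, the 5 immediate early genes with the largest change in each line whose lower group averaged at least 20 counts, and any partner gene called. NFKBIA, ZFP36L2 and SRF fall outside this rule and were named after their values were seen, as were the motifs of the heat shock core, CCAAT and TGACG. The members and lists were chosen with earlier results of these data known. GENCODE 44 matched 19943 of 20771 genes, and RefSeq promoter windows matched 5 of the 6 members, all but IER3. The alternatives tried included DESeq2 1.42.0, other scalings and filters, and leaving out each library.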

Additional observations from a re-analysis of the deposited data

Results flagged for a closer look

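The response to the 48 h condition differed between the lines for 5 of the 6 genes by the interaction term of the edgeR fit, beside 25.7% of all genes tested in the same direction. The EW8 response exceeded the TC71 response by 1.21 on the log2 scale for IER3, by 1.2 for CSRNP1, by 1.12 for IER5L, by 0.65 for IER2 and by 0.24 for CSRNP2. The values of IER5L and CSRNP2 lost their calls without single libraries. With a fold of 1.5 inside the test, the calls of IER5L, IER2 and CSRNP2 were lost and those of IER3 and CSRNP1 were not.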

How the results depend on the processing

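With the fold threshold dropped, 6 members were higher in EW8, 5 in TC71 and 5 had a larger response in EW8, beside 37%, 22.9% and 25.7% of all genes, and IER5L lost its EW8 call under 14 of 22 alternatives. Likewise 4 differed between the lines at 0 h and 4 at 48 h, beside 65.7% and 72.7% of all genes, 50 other immediate early genes were higher in TC71, and 4 and 1 partner genes were higher in EW8 and TC71. With a fold of 1.5 inside the test, 4 members were higher in EW8, 2 had a larger response there, 1 differed between the lines at 0 h and 2 at 48 h, beside 16.3%, 6.11%, 20.4% and 29.3% of all genes. Over the other alternatives, the fold changes of IER2, IER3 and CSRNP1 from 0 h to 48 h kept their direction and stayed past the p threshold in both lines. The difference between the lines at 0 h, which was not called for IER5 or CSRNP1, changed sign. For IER5 it was 0.0043 with DESeq2 size factors, 0.0038 with DESeq2's test and 0.0055 with no filter, and it ran from -0.04 to 0.053 with single libraries left out. For CSRNP1 it was 0.00077 with no filter and ran from -0.077 to 0.049 with single libraries left out. The cause was not tested. Scaling by total counts alone moved the median of all genes in EW8 from 0.031 to 0.16 and left every member's direction between the times as it was. IER5L had as few as 12 counts in a library, and the part of depth in its result was not tested.

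Libraries with the same replicate number did not deviate together, with correlations from -0.138 to -0.0147 within the lines. With the replicate block, 3 members were higher in EW8, 3 in TC71 and 3 had a larger response in EW8, beside 13.8%, 3.07% and 6.95% of all genes, and no member gained or lost a call. Comparisons between the lines at 1 time were not fitted with it.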
